A study of Mus musculus with 72 samples.

Results

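The 12 libraries described here were made from the ventral hippocampus (VH) of male mice labelled C57BL/6J (6J): 6 were taken 30 min after a session that paired a cue with shock, and 6 were taken directly from the home cage. They were chosen by their labels from 72 libraries of a study that compared mice labelled C57BL/6J with mice labelled C57BL/6NJ (6NJ), VH with dorsal hippocampus (DH), and 3 conditions, with 6 libraries in each group. The shock and cue libraries carry the codes 31A, 31B, 31C, 33A, 33B and 33C, and the home cage libraries the codes 35A, 35B, 35C, 36A, 36B and 36C. For comparison, 6 VH libraries labelled 6J taken after the cue alone, the shock and cue and home cage libraries of VH labelled 6NJ, and those of DH labelled 6J were used, with 6 libraries in each group. The labels name no transgene and no drug for any of these groups. Each code number belongs to 1 condition and 1 strain label, so that anything shared by the libraries of a code number cannot be told apart from the condition within that number. No label ties a library to its own mouse, so the tests cover the spread from library to library, part of which may be technical. Mice of the home cage group had no session at all, so that handling and a new place cannot be told apart from cue and shock in this comparison.

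Excitation of neurons brings on a first wave of genes whose transcription needs no new protein. Many encode transcription factors (the Fos, Jun, Egr and Nr4a families), and others encode proteins that act at synapses or on signalling, such as Arc. Calcium entry and MAP kinases drive this wave through factors already bound to the promoters, among them CREB and SRF. Feedback inhibitors and slower genes follow within hours. The ventral hippocampus is connected with amygdala and hypothalamus and is studied for its part in fear and anxiety, and the first wave is widely used to mark neurons active in learning.

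Library totals ran from 32431823 to 39707582 gene counts in the 12 libraries, and reads of the mitochondrial genome made up 6.03% to 9.34% of them. Gene levels are given as CPM, the counts of a gene scaled to a common library total. Trhr, Nr2f2 and Grp, genes known to be higher in VH, had 6.35 to 21.6, 27.1 to 57.1 and 19.6 to 39.5 CPM in these libraries, and 0.938 to 3.2, 7.45 to 17.3 and 2.66 to 9.35 CPM in the matching DH libraries, as the region labels would have it. The strain labels went against their known markers. Nnt, which is partly deleted in C57BL/6J mice, had 34.3 to 38.6 CPM in these 12 libraries, against 18.6 to 21.8 CPM in the 12 matching libraries labelled 6NJ. Gabra2, which is reduced in C57BL/6J, had 254.2 to 319 CPM here, against 106.5 to 158.7 CPM in those libraries. The libraries are therefore called "labelled 6J" and "labelled 6NJ", and conditions are compared within a label. Whether the condition part of the labels is right was not tested.

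Of 19597 genes tested, 610 (3.11%) differed between shock and cue and home cage at an adjusted p under 0.05, 361 higher (1.84%) and 249 lower (1.27%) after shock and cue. Here and throughout, adjusted p is from edgeR's quasi-likelihood test with Benjamini-Hochberg adjustment over all genes tested. Most changes were small. Among the higher genes, 24 changed by at least 2-fold, 43 by 1.5 to 2-fold and 294 by less, with a median of 1.21-fold. Among the lower genes, 11 changed by at least 2-fold, 21 by 1.5 to 2-fold and 217 by less, with a median of 1.17-fold. In 255 genes (1.3%) every shock and cue library lay above every home cage library, and in 152 (0.776%) every one lay below, 2.08% of the genes tested in both directions together. The number of calls depended on single libraries: it was 304 without shock and cue library 31B, 311 without home cage library 36A, 323 without 35A, 361 without 33B and 395 without 31A. With each of the 12 libraries left out in turn, 154 higher and 53 lower genes were called every time. Of 81 called genes followed here, 60 kept their call with each library left out in turn. The other 21 are given below with their highest adjusted p (edgeR) when 1 library was left out. With 3 libraries left out at once, 83 genes were called without code number 31, 239 without 33, 163 without 35 and 198 without 36.

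**Figure D1:**
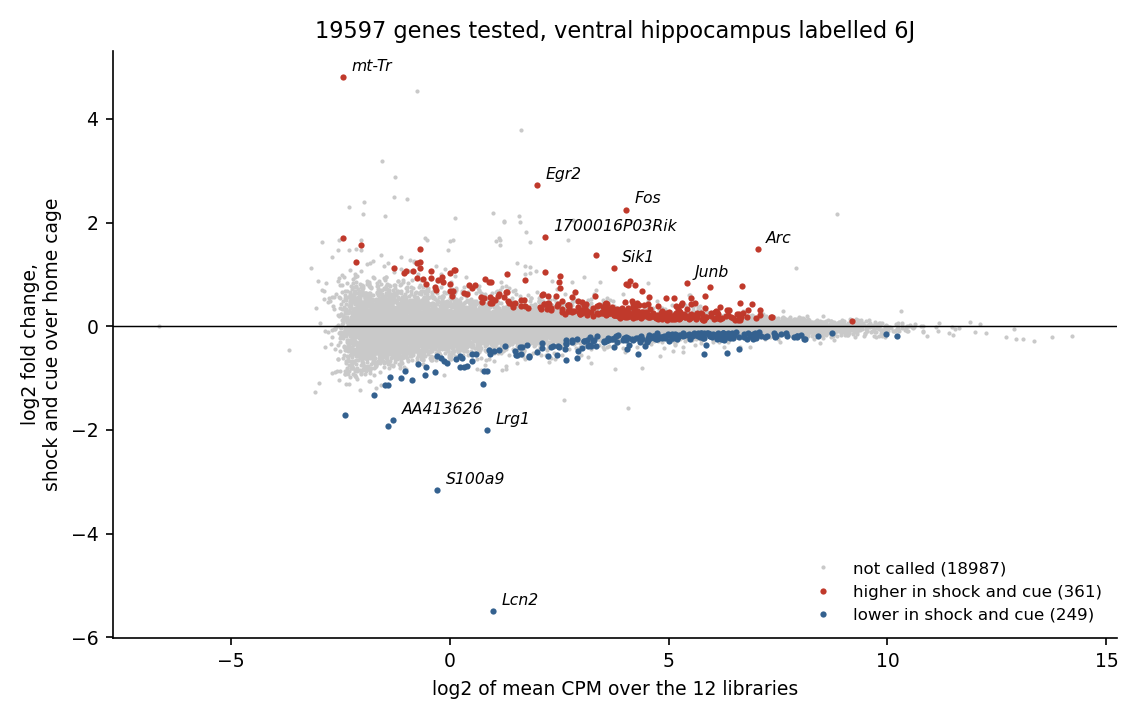
Each point is a gene, with the log2 of its mean CPM over the 12 libraries on the x axis and the log2 fold change of shock and cue over home cage on the y axis. The 361 called higher genes are red, the 249 called lower genes blue and the others grey. Most called genes lie near 0, while Egr2, Fos, 1700016P03Rik and Arc stand well above it, and Lcn2 and S100a9 far below. The highest called point, mt-Tr, rests on very few counts.

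Most transcription factors of the first wave rose. Of 21 such genes listed, 20 were tested, and 15 rose (75%, against 1.84% of all genes tested) and none fell. The median log2 fold change of the 20 was 0.46, against 0.00 over all genes tested. Over 25 other settings the number that rose ran from 8, without the 3 shock and cue libraries of code number 31, to 15. In 11 of the 20 every shock and cue library lay above every home cage library, against 1.3% of all genes. Egr2, a zinc finger factor, had 5.92 to 8.31 CPM with a median of 6.82 in shock and cue libraries, against 0.484 to 1.49 CPM with a median of 1.16 in home cage libraries. Its log2 fold change was 2.72 ± 0.14 (SE, n = 6 in each group; adjusted p = 1.89e-16), the smallest p of all genes tested. The 6 shock and cue libraries all stood far above the 6 home cage libraries.

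Fos, which pairs with Jun proteins to form AP-1, had 23.5 to 30.9 CPM with a median of 27.2 after shock and cue, against 4.44 to 8.21 CPM with a median of 5.35 in the home cage. Its log2 fold change was 2.25 ± 0.17 (adjusted p = 3.84e-11), and the groups were far apart. Fosb, a second Fos protein, had 12.7 to 17.7 CPM (median 14.8) in shock and cue libraries and 5.19 to 6.03 CPM (median 5.76) in home cage libraries, with a log2 fold change of 1.37 ± 0.09 (adjusted p = 3.89e-14). Junb, one of the Jun partners, had 48.3 to 57.6 CPM (median 55.8) after shock and cue and 27.3 to 32.6 CPM (median 31.5) in the home cage, with a log2 fold change of 0.83 ± 0.06 (adjusted p = 1.04e-11). For both genes no home cage library reached the lowest shock and cue library. Fosl2, the Fos relative that is usually slower, rose less, by 0.35 ± 0.09 on the log2 scale (adjusted p = 0.0195). Its call was lost when any 1 of 3 libraries was left out (adjusted p up to 0.0669, without 31A).

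The Egr family moved together, in unequal steps. Egr4 had 19.2 to 27.9 CPM (median 21.5) after shock and cue, against 10.7 to 15.9 CPM (median 11.8) in the home cage, and its log2 fold change was 0.87 ± 0.09 (adjusted p = 1.32e-08). Egr1, the member most used as a marker of activity, had 118 to 142 CPM after shock and cue and 63.8 to 91.9 CPM (median 75.8) in the home cage, a log2 fold change of 0.78 ± 0.09 (adjusted p = 6.05e-07). Egr3 changed least, by 0.32 ± 0.07 (adjusted p = 0.00723), and its groups overlapped, with 83.8 to 96.9 CPM after shock and cue and 64.0 to 86.5 CPM in the home cage. Nr4a1, an orphan nuclear receptor, had 73.3 to 83.3 CPM (median 78.7) after shock and cue and 38.7 to 53.8 CPM (median 47.0) in the home cage, a log2 fold change of 0.75 ± 0.07 (adjusted p = 3.23e-10). Its relative Nr4a3, on the list of later genes, rose by 0.44 ± 0.07 (adjusted p = 4.38e-05). Nr4a2 had a log2 fold change of 0.13 ± 0.13 (adjusted p = 0.61).

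Atf3, a stress-linked factor that was low in both groups, had 0.542 to 0.949 CPM after shock and cue and 0.204 to 0.688 CPM in the home cage, and rose by 1.13 ± 0.22 (adjusted p = 0.00206) with overlapping groups. Btg2, Ier2, Csrnp1, Klf2 and Klf4 rose by 0.40 to 0.68 on the log2 scale. The call of Klf2 was lost when any 1 of 5 libraries was left out (adjusted p up to 0.0613, without 36A) and that of Klf4 for any 1 of 9 (up to 0.107, without 31B). Of the 5 factors not called, Jun had a log2 fold change of 0.20 ± 0.07 (adjusted p = 0.10) and Npas4 of 0.10 ± 0.14 (adjusted p = 0.73), and the others lay between -0.04 and 0.20. Npas4, a factor induced by calcium entry in neurons and known for a short peak, had 14.8 to 19.3 CPM after shock and cue, and 10.8 to 24.0 CPM in the home cage. Its highest value of the 12 libraries was thus in a home cage library.

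**Figure D2:**
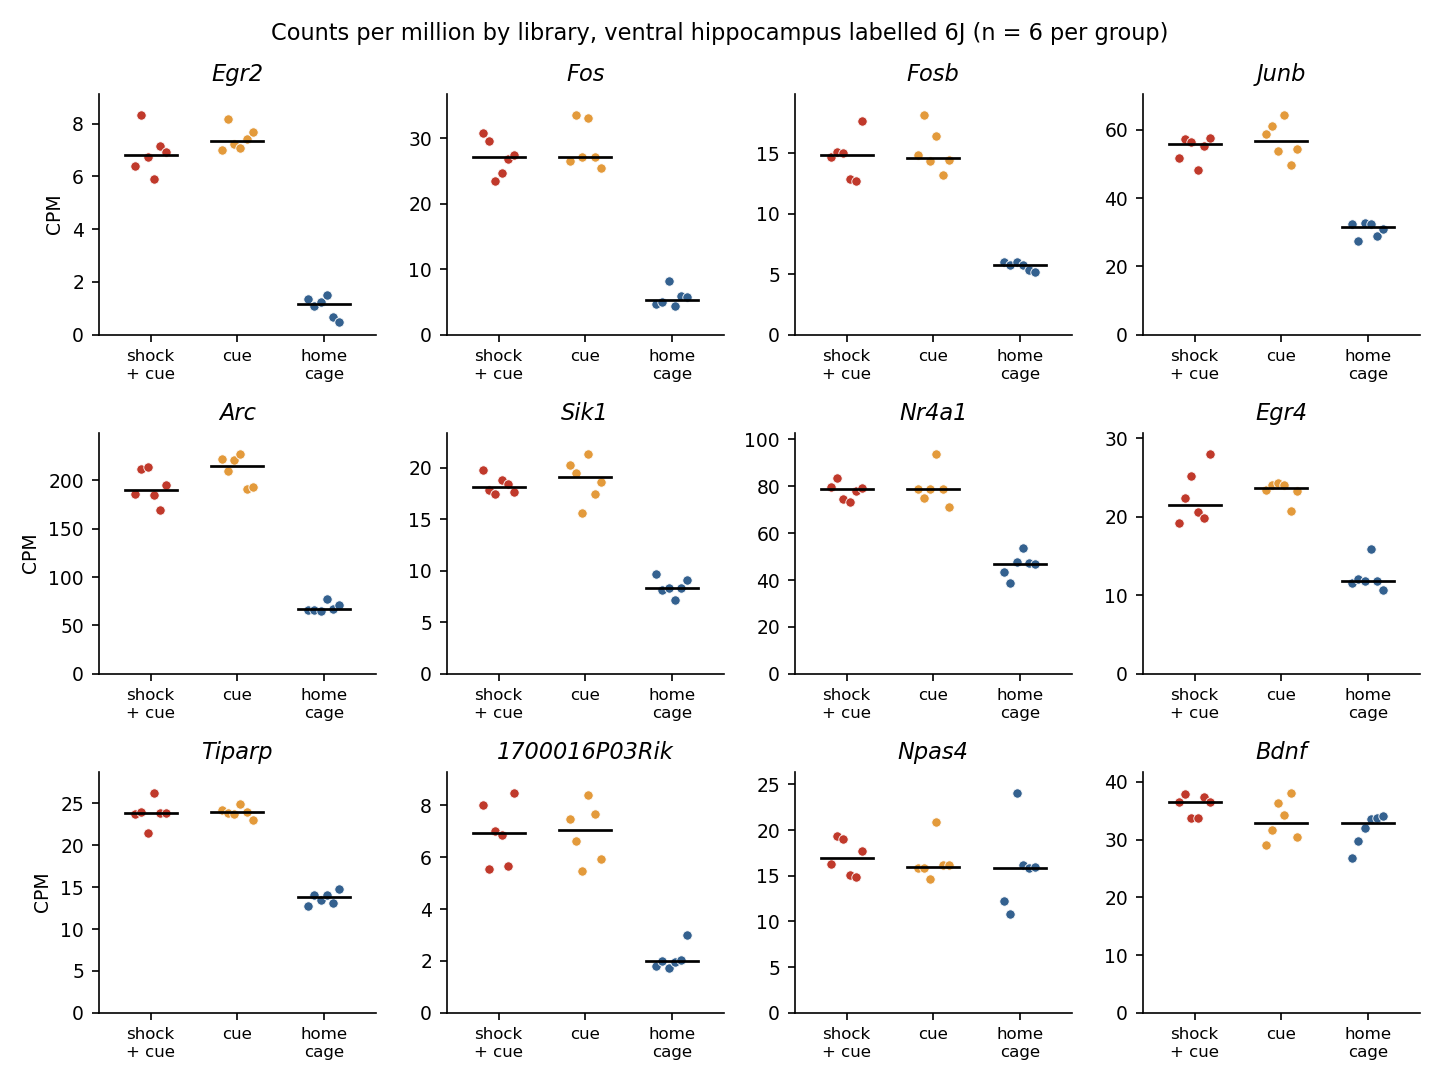
CPM (y axis, starting at 0) of 12 genes in each of the 6 shock and cue, 6 cue and 6 home cage VH libraries labelled 6J, with a black line at the median of each group. In the first 10 panels no home cage point reaches the lowest shock and cue point. Npas4 and Bdnf overlap between the groups.

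Among 20 rapid genes that encode effectors, 10 rose (50%, against 1.84% of all genes tested) and none fell (median log2 fold change 0.26). Over 25 other settings 7 to 11 of them rose. Arc, whose product acts on AMPA receptor traffic at synapses, had 169.6 to 214 CPM with a median of 190 after shock and cue, against 64.8 to 77.4 CPM with a median of 66.6 in the home cage. Its log2 fold change was 1.49 ± 0.08 (adjusted p = 1.66e-15), and the lowest shock and cue library stood far above the highest home cage library. Sik1, a kinase that restrains CREB coactivators, had 17.4 to 19.8 CPM (median 18.2) after shock and cue and 7.17 to 9.72 CPM (median 8.33) in the home cage, a log2 fold change of 1.12 ± 0.09 (adjusted p = 1.04e-11). Ccn1, a secreted matrix protein, rose by 1.04 ± 0.13 (adjusted p = 3.09e-06), and Apold1, a gene of vascular endothelium in brain, by 0.85 ± 0.14 (adjusted p = 0.000211). Gadd45b and Gadd45g, linked to DNA damage and demethylation, rose by 0.58 ± 0.08 (adjusted p = 3.21e-05) and 0.33 ± 0.09 (adjusted p = 0.034). Mcl1, an inhibitor of apoptosis, Coq10b and Fbxo33 rose by 0.19 to 0.28. The call of Gadd45g was lost when any 1 of 5 libraries was left out, that of Coq10b for any 1 of 7 and that of Fbxo33 for any 1 of 2. Adjusted p ran up to 0.103 for Gadd45g and 0.112 for Coq10b (without 35A) and 0.06 for Fbxo33 (without 31B). Rgs2, an inhibitor of G protein signalling, was among the 10 not called, with a log2 fold change of 0.13 ± 0.06 (adjusted p = 0.26).

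The promoters of the strongest rapid genes are shown because the first wave is known to be read from sites close to the start. Of the 8 genes from the lists of rapid genes that stand among the 15 higher genes of smallest p, 6 had a promoter in the RefSeq table of GRCm38.p6, and Arc and Sik1 are named only. Each line gives the 250 bases before the RefSeq start nearest to that of the gene's most abundant transcript, 5′ to 3′ on the gene's strand. Capitals mark TGACG on either strand (the core of a CREB site) and the CArG box (the SRF site). The Egr2 promoter is at chr10:67537619-67537868 (plus strand), Fosb at chr7:19310046-19310295 (minus), Junb at chr8:84978749-84978998 (minus), Fos at chr12:85473640-85473889 (plus), Nr4a1 at chr15:101266596-101266845 (plus) and Egr4 at chr6:85513590-85513839 (minus).
Egr2: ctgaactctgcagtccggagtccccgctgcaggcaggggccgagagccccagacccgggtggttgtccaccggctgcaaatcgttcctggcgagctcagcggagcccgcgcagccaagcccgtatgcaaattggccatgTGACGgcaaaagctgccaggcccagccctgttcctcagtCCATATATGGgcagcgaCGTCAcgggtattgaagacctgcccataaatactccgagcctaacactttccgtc
Fosb: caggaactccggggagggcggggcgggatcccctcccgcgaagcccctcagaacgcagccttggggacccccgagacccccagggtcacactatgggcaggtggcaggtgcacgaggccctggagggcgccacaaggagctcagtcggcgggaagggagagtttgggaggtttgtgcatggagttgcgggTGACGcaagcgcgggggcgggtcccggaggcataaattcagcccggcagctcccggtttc
Junb: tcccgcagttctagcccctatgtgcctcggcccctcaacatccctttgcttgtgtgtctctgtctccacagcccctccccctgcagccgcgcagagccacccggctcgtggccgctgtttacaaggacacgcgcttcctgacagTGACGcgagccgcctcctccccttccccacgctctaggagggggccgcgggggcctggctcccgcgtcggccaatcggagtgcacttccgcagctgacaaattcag
Fos: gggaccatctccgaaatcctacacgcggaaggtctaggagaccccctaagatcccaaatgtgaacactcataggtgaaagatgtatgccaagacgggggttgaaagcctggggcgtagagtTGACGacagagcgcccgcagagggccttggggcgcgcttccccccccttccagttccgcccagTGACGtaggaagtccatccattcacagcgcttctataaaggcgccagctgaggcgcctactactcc
Nr4a1: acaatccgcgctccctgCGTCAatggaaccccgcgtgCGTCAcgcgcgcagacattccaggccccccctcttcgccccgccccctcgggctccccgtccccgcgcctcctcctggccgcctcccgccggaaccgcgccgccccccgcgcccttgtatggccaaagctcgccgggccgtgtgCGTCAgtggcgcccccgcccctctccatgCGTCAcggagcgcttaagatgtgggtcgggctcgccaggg
Egr4: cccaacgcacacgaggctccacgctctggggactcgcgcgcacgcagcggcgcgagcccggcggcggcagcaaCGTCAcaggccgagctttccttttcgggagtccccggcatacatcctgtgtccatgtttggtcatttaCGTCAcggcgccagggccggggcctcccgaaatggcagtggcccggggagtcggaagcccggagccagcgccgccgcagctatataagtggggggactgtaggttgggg
TGACG or its reverse complement was present in all 6, with 4 matches in Nr4a1, 2 each in Egr2, Fos and Egr4, and 1 each in Fosb and Junb. It occurred in 17.8% of the 32851 promoters of the table over the same 250 bases. The CArG box occurred in Egr2, with 1 match, and in 1.47% of all promoters. The full palindrome TGACGTCA (1.55% of all promoters), which would hold TGACG on both strands, and the AP-1 site TGANTCA (6.75%) were found in none of the 6. These are letter matches in a window and not measured binding, and sites further than 250 bases from the start were not searched. G and C made up 58.4% to 74.4% of the bases of the 6 promoters. The shares over all promoters were not matched for this.

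Genes that restrain MAP kinase signalling rose in part. Of 18 listed, 5 rose (27.8%, against 1.84% of all genes tested) and none fell (median log2 fold change 0.05). Over 25 other settings 4 to 6 of the list rose. Dusp1, a nuclear phosphatase, had 19.5 to 23.4 CPM (median 21.2) after shock and cue and 10.6 to 14.6 CPM (median 12.2) in the home cage, a log2 fold change of 0.79 ± 0.10 (adjusted p = 5.87e-06). The ERK phosphatases Dusp5 and Dusp6 rose by 0.56 ± 0.07 (adjusted p = 6.40e-07) and 0.45 ± 0.08 (adjusted p = 0.000786). Errfi1, an inhibitor of the EGF receptor, rose by 0.54 ± 0.06 (adjusted p = 2.29e-07), and Spry4, a Sprouty protein, by 0.31 ± 0.07 (adjusted p = 0.0102). For each of these 5 genes no home cage library reached the lowest shock and cue library.

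Of 26 genes known to follow later, 9 rose (34.6%, against 1.84% of all genes tested) and none fell (median log2 fold change 0.21). Over 25 other settings 5 to 11 of the list rose. Tiparp, an ADP-ribosyltransferase, had 21.5 to 26.2 CPM (median 23.8) after shock and cue, against 12.7 to 14.8 CPM (median 13.8) in the home cage, a log2 fold change of 0.80 ± 0.05 (adjusted p = 2.63e-13). Arl4d and Rasl11a, small GTPases, rose by 0.73 ± 0.17 (adjusted p = 0.0115) and 0.47 ± 0.12 (adjusted p = 0.0222). The call of Rasl11a was lost when any 1 of 2 libraries was left out (adjusted p up to 0.0573, without 36A). Bdnf, the neurotrophin, had 33.7 to 37.8 CPM after shock and cue and 26.7 to 34.0 CPM in the home cage, with a log2 fold change of 0.18 ± 0.08 (adjusted p = 0.21). Crem, a CREB relative, had a log2 fold change of 0.16 ± 0.06 (adjusted p = 0.11).

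Of 6 transcripts of Homer1, a scaffold of metabotropic glutamate receptors, 2 short ones rose and the other 4 were not called. As a gene it had 126.9 to 157.2 CPM after shock and cue and 94.6 to 107 CPM in the home cage, a log2 fold change of 0.43 ± 0.06 (adjusted p = 2.71e-06). Short forms of the protein are known to be induced by activity and to lack the domain that joins Homer proteins to each other. Homer1-204, which codes for 186 residues, had 34.0 to 56.7 CPM of the estimated transcript counts (estimated CPM; median 39.9) in shock and cue libraries and 18.7 to 26.4 (median 21.3) in home cage libraries, a log2 fold change of 0.94 ± 0.12 (adjusted p = 1.95e-05). Homer1-205, with 203 residues, had 7.41 to 11.8 (median 9.01) after shock and cue and 0 to 0.744 (median 0.358) in the home cage, with a fitted log2 fold change of 4.70 ± 0.52 (adjusted p = 1.22e-06). Homer1-202, which codes for the long form of 370 residues, had 51.5 to 60.2 (median 55.1) after shock and cue and 51.2 to 63.4 (median 53.4) in the home cage, a log2 fold change of 0.01 ± 0.07 (95% interval -0.12 to 0.15). Of the other forms, the long Homer1-203, with 366 residues, had a log2 fold change of 0.23 ± 0.20 (adjusted p = 0.80). The short Homer1-206, with 233 residues, had 0.44 ± 0.24 (adjusted p = 0.58), and Homer1-207, with 193 residues, had -0.23 ± 0.32 (adjusted p = 0.90) at up to 1.27 estimated CPM. The difference between transcripts of a gene was not tested, here or below.

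Values also differed among transcripts of Nr4a1 and Sgk1. Nr4a1-201 rose by 1.17 ± 0.11 (adjusted p = 2.69e-08), while Nr4a1-202, which codes for the same 601 residues, had a log2 fold change of -0.37 ± 0.21 (adjusted p = 0.60). Sgk1-201 rose by 0.70 ± 0.09 (adjusted p = 3.65e-05), and Sgk1-204 had a log2 fold change of 0.17 ± 0.15 (adjusted p = 0.82). The kallisto estimates split reads that several transcripts share, so a change between transcripts of a gene rests on fewer reads than the gene's own count.

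**Figure D3:**
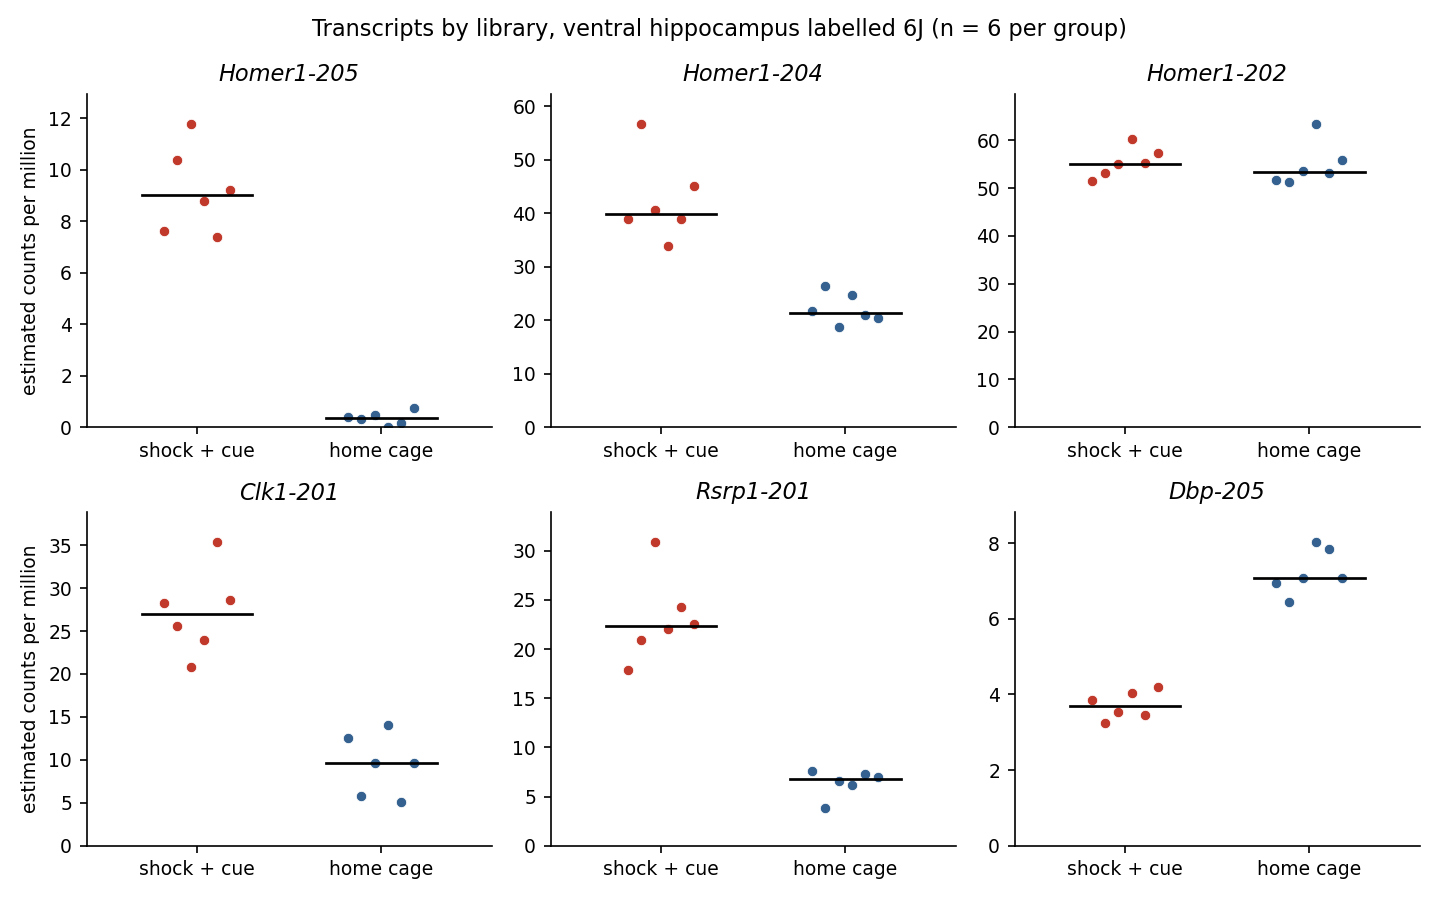
Estimated CPM (y axis, starting at 0) of 6 transcripts in each of the 6 shock and cue and 6 home cage libraries, with a black line at the median. The short Homer1-205 and Homer1-204 lie higher after shock and cue in every library, while the long Homer1-202 overlaps. Clk1-201 and Rsrp1-201 lie higher and Dbp-205 lower after shock and cue, with no overlap.

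Fewer transcripts than genes were called, and retained introns were the largest class among the lower ones with edgeR, though not with DESeq2. Of 55754 transcripts tested, 156 (0.28%) were called, 117 higher (0.21%) and 39 lower (0.07%). Retained introns were 23 of the 39 lower transcripts (59%) and 12 of the 117 higher ones (10.3%), against 22.2% of all transcripts tested. The genes of 18 of those 23 were not called themselves. DESeq2 called 204 lower transcripts, 75 with a retained intron and 92 protein coding. With a mean of at least 1 CPM they were 22 of 50 lower calls, against 19 protein coding ones. Dbp-205, a form of the clock output gene Dbp, had 3.24 to 4.21 estimated CPM after shock and cue and 6.45 to 8.02 in the home cage, a log2 fold change of -0.96 ± 0.15 (adjusted p = 0.000406). Ipo9-210, of an importin gene, fell by 1.25 ± 0.21 (adjusted p = 0.00266), and Clcn2-208, of a chloride channel gene, by 0.87 ± 0.16 (adjusted p = 0.00454). The genes of these 3 transcripts were also called lower: Dbp by 0.54, Ipo9 by 0.13 (adjusted p = 0.00801) and Clcn2 by 0.23 (adjusted p = 0.00832). Ipo9 and Clcn2 were named outside the rule by which genes are named here.

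The 4 genes below were chosen after their values were seen, as cases where a transcript moved by more than its gene. Clk1-201, the coding form of a kinase that acts on splicing factors, had 20.8 to 35.3 estimated CPM (median 26.9) after shock and cue, against 5.04 to 14.0 (median 9.59) in the home cage, a log2 fold change of 1.52 ± 0.24 (adjusted p = 0.000581). The gene Clk1 rose by 0.31 ± 0.07 (adjusted p = 0.00842), and its other abundant forms, Clk1-204 and Clk1-210, had log2 fold changes of 0.28 and -0.06. Rsrp1-201 rose by 1.85 ± 0.20 (adjusted p = 1.19e-06), while the gene Rsrp1 had a log2 fold change of -0.17 ± 0.06 (adjusted p = 0.14). Rsrp1-201 had means of 23.1 estimated CPM after shock and cue and 6.41 in the home cage. The most abundant form tested, the retained-intron Rsrp1-204, had means of 212.1 and 255.5, with a log2 fold change of -0.27. Rsrp1-208, Rsrp1-203 and Rsrp1-205 had 0.22, -0.70 and -0.46, and none of these other forms was called. Rbm3-211, a form with no coding sequence, rose by 1.49 ± 0.14 (adjusted p = 2.15e-08), and the gene Rbm3, a cold-inducible RNA-binding protein, had a log2 fold change of 0.11 ± 0.08 (adjusted p = 0.48). The chaperone gene Hsph1 had a log2 fold change of 0.11 ± 0.07 (adjusted p = 0.41), and its retained-intron form Hsph1-204 rose by 1.37 ± 0.20 (adjusted p = 0.000209).

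The noncoding gene 1700016P03Rik (chr11:75172560-75177633, plus strand, GRCm38), within which the annotation places Mir212 and Mir132, had 5.55 to 8.46 CPM (median 6.94) after shock and cue, against 1.73 to 3.005 CPM (median 1.99) in the home cage. Its log2 fold change was 1.72 ± 0.14 (adjusted p = 2.32e-11). The libraries hold messenger RNA and not mature microRNAs, which were not measured. Of the other higher genes of smallest p, Ddit4, an inhibitor of mTOR signalling, rose by 0.54 ± 0.05 (adjusted p = 3.23e-10), and Spty2d1, a histone chaperone, by 0.45 ± 0.05 (adjusted p = 8.66e-08). Arl5b, a small GTPase, and Tent5a, a poly(A) polymerase, rose by 0.54 ± 0.06 (adjusted p = 3.54e-07) and 0.98 ± 0.12 (adjusted p = 6.05e-07). In all 5 genes the groups did not overlap.

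Targets of glucocorticoid receptors moved in part. Of 24 listed, 7 rose (29.2%, against 1.84% of all genes tested) and none fell (median log2 fold change 0.04). They were Sgk1, Ddit4, Errfi1, Per1, Nfkbia, Pdk4 and Cdkn1a. Over 25 other settings 4 to 8 of the list rose and 0 to 2 fell. Sgk1, a kinase that acts on ion transport, had 57.3 to 79.6 CPM (median 68.8) after shock and cue and 41.6 to 52.5 CPM (median 44.7) in the home cage, a log2 fold change of 0.59 ± 0.08 (adjusted p = 5.42e-06). Nfkbia, the inhibitor of NF-kB, rose by 0.38 ± 0.08 (adjusted p = 0.00575), and Pdk4, a kinase of pyruvate dehydrogenase, by 0.35 ± 0.07 (adjusted p = 0.00553). Errfi1 is also on the list of MAP kinase feedback, and Per1 on that of clock genes. Fkbp5, the cochaperone of the receptor, had a log2 fold change of -0.15 ± 0.10 (adjusted p = 0.42), and Tsc22d3 of 0.30 ± 0.10 (adjusted p = 0.10), although all 6 shock and cue libraries lay above all home cage libraries for Tsc22d3.

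Of 16 clock genes, 2 rose (12.5%, against 1.84% of all genes tested) and 2 fell (12.5%, against 1.27%). Per1, which is induced by light, activity and glucocorticoids, had 74.9 to 90.1 CPM (median 80.9) after shock and cue, against 55.3 to 70.1 CPM (median 64.0) in the home cage, a log2 fold change of 0.36 ± 0.05 (adjusted p = 5.21e-05). Per2 rose by 0.21 ± 0.06 (adjusted p = 0.0432), a call lost when any 1 of 7 libraries was left out (adjusted p up to 0.104, without 35C). Dbp, an output gene of the clock, fell by 0.54 ± 0.14 (adjusted p = 0.0307), with 38.7 to 57.4 CPM after shock and cue and 44.9 to 85.2 CPM in the home cage, and its call was also lost when any 1 of 7 libraries was left out (adjusted p up to 0.0989, without 36A). Nr1d1, a repressor of Arntl, fell by 0.27 ± 0.06 (adjusted p = 0.00842) with no overlap. The labels give no clock time of killing.

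Few chaperones were called. Of 20 heat shock chaperones, 2 rose (10%, against 1.84% of all genes tested) and none fell (median log2 fold change 0.09). Dnajb1 rose by 0.34 ± 0.09 (adjusted p = 0.0317) and Dnajb4 by 0.19 ± 0.05 (adjusted p = 0.022). Neither was called without library 31B. The call of Dnajb1 was lost when any 1 of 7 libraries was left out (adjusted p up to 0.0635, without 31B). That of Dnajb4 was lost for any 1 of 2 (up to 0.0612, without 35A). Of 16 chaperones of the endoplasmic reticulum (ER), none was called, although 16 of 16 had a positive log2 fold change (median 0.11, highest 0.29 for Hspa5, the main ER chaperone, adjusted p = 0.30). Cirbp, an RNA-binding protein that rises in the cold, fell by 0.36 ± 0.10 (adjusted p = 0.0363), with 43.3 to 58.1 CPM after shock and cue and 57.5 to 73.6 CPM in the home cage. Its call was lost when any 1 of 8 libraries was left out (adjusted p up to 0.10, without 36A).

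Most of the lower genes of smallest p changed little in size. Whamm, a nucleator of actin at membranes, had the smallest p of them, with 17.5 to 18.8 CPM (median 18.2) after shock and cue and 20.6 to 24.1 CPM (median 22.8) in the home cage, a log2 fold change of -0.31 ± 0.05 (adjusted p = 0.000237). Timm44, of the mitochondrial import motor, fell by 0.23 ± 0.04 (adjusted p = 0.00217), and the genes Dus3l, Rexo1 and Ano8 by 0.21 to 0.22. Csf2ra, a receptor of GM-CSF, fell by 0.25 ± 0.05 (adjusted p = 0.0049). For these 6 genes no shock and cue library reached the lowest home cage library. Zfp867, a zinc finger gene, fell by 0.57 ± 0.11 (adjusted p = 0.00366), and Foxq1, a forkhead factor, by 0.58 ± 0.12 (adjusted p = 0.00482), both with overlapping groups. Foxq1 had 5.95 and 5.105 CPM in home cage libraries 35A and 35B and 3.26 to 3.79 CPM in the others. After shock and cue it had 2.22 to 3.50 CPM. Libraries 35A and 35B were also high in Lcn2 (below).

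Of the 15 lower genes of smallest p, the other 7 were noncoding genes or pseudogenes. Lncppara had 4.31 to 7.17 CPM after shock and cue and 7.99 to 10.8 CPM in the home cage, a log2 fold change of -0.62 ± 0.12 (adjusted p = 0.00254). Gm3764 fell by 0.45 ± 0.08 (adjusted p = 0.00141), 2900052L18Rik by 0.58 ± 0.12 (adjusted p = 0.00362), and Gm27032 and Gm21781 by 0.39 each. Gm3764 had 131.3 and 132.4 CPM in home cage libraries 35A and 35B and 97.6 to 107.4 CPM in the others. After shock and cue it had 74.9 to 95.8 CPM. The processed pseudogene AA413626 had 0.0845 to 0.279 CPM after shock and cue and 0.478 to 0.764 CPM in the home cage, a log2 fold change of -1.82 ± 0.34 (adjusted p = 0.00163), and its reads may be shared with the copy it derives from. The snoRNA gene Gm26202 fell by 1.33 ± 0.27 (adjusted p = 0.00387) at under 1 CPM in every library. Over all calls, 33 of the 249 lower genes (13.3%) and 10 of the 361 higher genes (2.77%) were long noncoding, against 13.6% of the genes tested. Protein coding genes were 82.3% of the lower and 95.3% of the higher calls, against 78.2%. The median span of lower genes was 11.5 kb and that of higher genes 20.4 kb, against 18.3 kb.

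Channel and receptor genes were nearly all uncalled. Of 24 glutamate receptor genes, the kainate receptor subunit gene Grik5 fell by 0.18 ± 0.05 (adjusted p = 0.0296) and none rose. This 1 gene was 4.17% of the list, against 1.27% lower over all genes tested. Of 28 potassium channel genes, Kcnk3, a leak channel, fell by 0.29 ± 0.08 (adjusted p = 0.0436) and Kcnn2, a channel gated by calcium, by 0.17 ± 0.05 (adjusted p = 0.0361). These 2 were 7.14% of the list, against 1.27% lower over all genes tested. The call of Kcnk3 was lost when any 1 of 10 libraries was left out, and those of Grik5 and Kcnn2 for any 1 of 6 each. Adjusted p was highest without library 35A, at 0.148 for Grik5, 0.147 for Kcnk3 and 0.0993 for Kcnn2. None of 12 GABA-A receptor subunits, 10 genes of the CRH system or 36 complex I subunits was called. None of 43 ribosomal protein genes was called either, although all 43 had a negative log2 fold change (median -0.15).

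**Figure D4:**
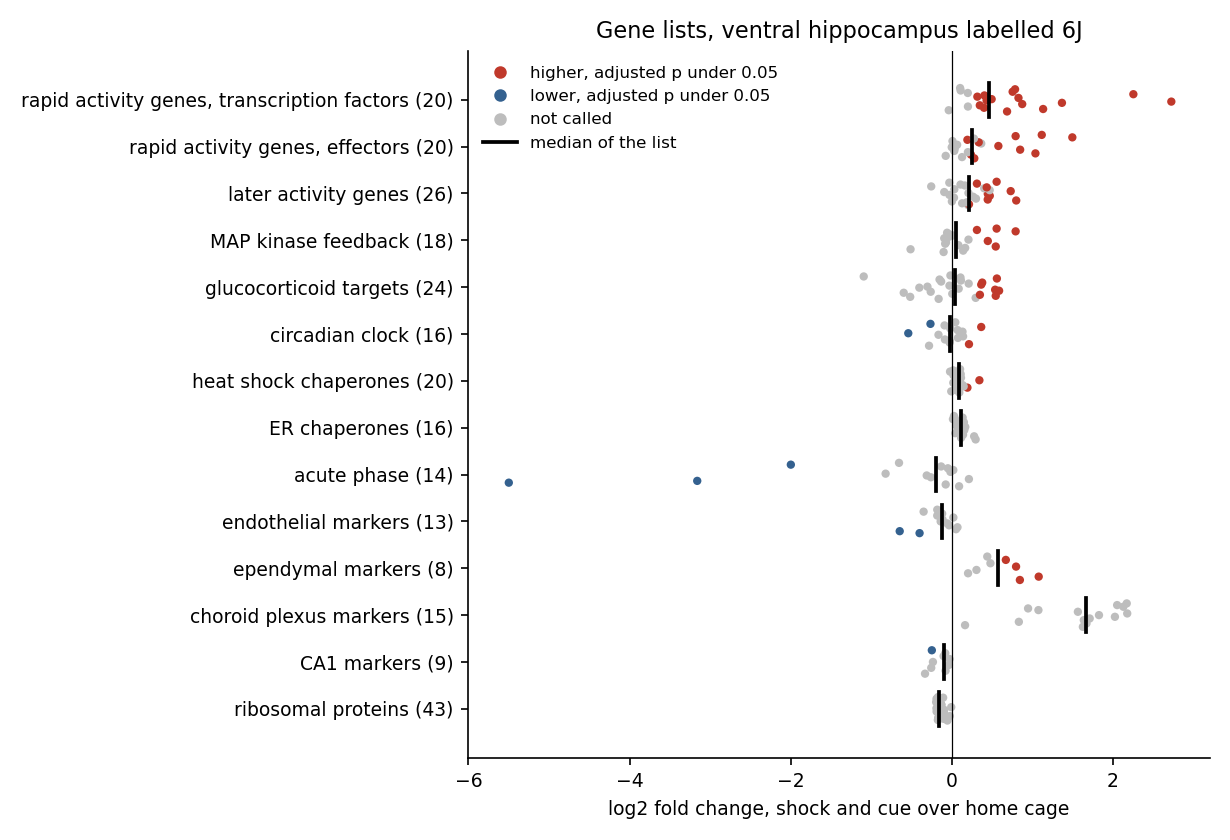
Each point is a tested gene of a list named on the left, with its number of genes, at its log2 fold change of shock and cue over home cage on the x axis. Red and blue points were called higher and lower, grey points were not called, and the black bar is the median of the list. Most rapid activity genes lie to the right of 0, and all choroid plexus and ependymal markers lie above 0.

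Ependymal markers differed between the groups. The summed level of the 8 ependymal markers was 27.0 to 42.7 CPM in shock and cue libraries and 23.0 to 25.1 CPM in home cage libraries, with no overlap. In the 6 cue libraries it was 19.51 to 36.15 CPM, which overlaps both groups. Of the 8, 4 rose (50%, against 1.84% of all genes tested) and none fell (median log2 fold change 0.57). Over 25 other settings the number that rose ran from 0, without the shock and cue libraries of code number 31, to 4. Foxj1, the factor that directs motile cilia, had 7.56 to 11.5 CPM after shock and cue and 4.66 to 6.74 CPM in the home cage, a log2 fold change of 0.67 ± 0.15 (adjusted p = 0.00906). Pifo, Tmem212 and Dynlrb2, also genes of cilia, rose by 1.08 ± 0.26, 0.84 ± 0.23 and 0.80 ± 0.17. The call of Tmem212 was lost when any 1 of 7 libraries was left out (adjusted p up to 0.139, without 31B). With the ependymal level as a covariate, 290 genes were called, among them 11 of the 20 rapid factors, 8 of the 20 rapid effectors, 6 of the 26 later genes, 6 of the 24 glucocorticoid targets and none of the ependymal markers. Since the groups did not overlap in this level, the covariate also takes up part of the difference between the conditions. In bulk libraries, more or fewer cells of a type and more or less RNA per cell cannot be told apart.

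The 15 choroid plexus markers had summed levels of 94.8 to 2477 CPM in shock and cue libraries (median 549.5) and 79.1 to 725.9 CPM in home cage libraries (median 146.3). All 15 had a positive log2 fold change (median 1.67) and none was called. Ttr, the main product of that tissue, stood at 829.5, 2194 and 1433 CPM in shock and cue libraries 31B, 31C and 33C, and at 11.9 to 29.5 CPM in the others. In the home cage libraries it ran from 12.1 to 608.5 CPM. With the choroid plexus level as a covariate, 490 genes were called.

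Of 14 acute phase genes 3 fell (21.4%, against 1.27% of all genes tested), with a median log2 fold change of -0.20. The 3 calls rested on home cage libraries. Lcn2, the iron-binding lipocalin of inflammation, had 0.031 to 0.142 CPM in shock and cue libraries, against 5.86 and 16.9 CPM in home cage libraries 35A and 35B and 0.0281 to 0.293 CPM in the other 4 home cage libraries. Its log2 fold change was -5.50 ± 1.40 (adjusted p = 0.0267), and S100a9 fell by 3.16 ± 0.83 (adjusted p = 0.0308) and Lrg1 by 1.998 ± 0.45 (adjusted p = 0.0116). The call of Lcn2 was lost when any 1 of 5 libraries was left out, and that of S100a9 for any 1 of 6. Adjusted p was highest without library 35B, at 0.11 for Lcn2 and 0.179 for S100a9. Without the 6 VH libraries labelled 6J that had Lcn2 above 2 CPM (2 home cage and 4 cue), none of the 3 was called, the log2 fold change of Lcn2 was -0.65, and 331 genes were called in all. The endothelial factors Sox18 and Sox17 fell by 0.65 ± 0.14 (adjusted p = 0.00575) and 0.40 ± 0.11 (adjusted p = 0.0331), the only ones of 13 endothelial markers called (15.4%, against 1.27% lower over all genes tested). The call of Sox17 was lost when any 1 of 7 libraries was left out (adjusted p up to 0.114, without 35A). Without the libraries high in Lcn2 their values were -0.39 and -0.33, and neither was called. Among the 20 rapid factors, 15 were called without those libraries.

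Markers of neurons and other glia gave few calls, where 1.84% of all genes tested were higher and 1.27% lower. Of 9 CA1 markers, Mpped1 fell by 0.25 ± 0.06 (adjusted p = 0.0121), and all 9 had a negative log2 fold change (median -0.10). The summed level of the CA1 markers was 892.2 to 1063 CPM after shock and cue and 1015 to 1173 CPM in the home cage. Of 8 markers of oligodendrocyte precursors, Gpr17 rose by 0.42 ± 0.10 (adjusted p = 0.0176), a call lost without 31A or without 31B (adjusted p up to 0.0625). Gpr17 was 62.9 and 64.9 CPM in those libraries and 44.1 to 52.2 CPM in the other shock and cue libraries, against 35.9 to 41.7 CPM in the home cage. Of 12 oligodendrocyte markers 11 had a positive log2 fold change (median 0.18), and their summed level was 4072 to 6694 CPM after shock and cue and 3345 to 6762 CPM in the home cage. Of 10 meningeal fibroblast markers all 10 were positive (median 0.24) and none was called, with summed levels of 125.6 to 242.2 CPM after shock and cue and 121.5 to 186.4 CPM in the home cage. The part of these markers in the results was not tested. Rgs9, a marker of striatum, fell by 0.22 ± 0.06 (adjusted p = 0.0445), a call lost when any 1 of 10 libraries was left out (adjusted p up to 0.12, without 33A). No marker of dentate granule cells, CA2 and CA3, interneurons, astrocytes, oligodendrocytes or microglia was called.

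What shock added to the cue was tested directly against the 6 cue libraries. None of the 19597 genes was called, 1465 (7.48%) had an unadjusted p under 0.05, and the smallest adjusted p was 0.478 (edgeR). DESeq2 called 1 gene, Lcn2, which was high in 4 of the 6 cue libraries. For the rapid genes the intervals were narrow. Egr2 had 5.92 to 8.31 CPM after shock and cue and 7.01 to 8.18 CPM after the cue alone, a log2 fold change of -0.11 with a 95% interval of -0.35 to 0.14. Fos differed by -0.08 (-0.39 to 0.22), Arc by -0.12 (-0.28 to 0.04), Fosb by -0.05 (-0.22 to 0.11), Junb by -0.06 (-0.19 to 0.06) and Nr4a1 by -0.03 (-0.16 to 0.11). A p that misses the threshold does not show that the groups are alike, and these intervals bound how far apart they could be.

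Set beside each other with the same home cage libraries, shock and cue gave 610 calls and the cue alone 2518 (12.8%), of which 1524 were higher (7.78%) and 994 lower (5.07%). Of the 20 heat shock chaperones, 2 rose after shock and cue and 14 after the cue. Of the 16 ER chaperones, none was called after shock and cue and 10 rose after the cue. Hspa5 had a log2 fold change of 0.29 after shock and cue and 0.68 after the cue, and the difference of -0.38 (95% interval -0.70 to -0.07) was not called (adjusted p = 0.61). Hsph1 had 0.11 after shock and cue and 0.34 after the cue, a difference of -0.24 (-0.38 to -0.09; adjusted p = 0.57). Of the rapid factors, 15 rose after shock and cue and 17 after the cue. These pairs of values share their home cage libraries.

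The counts after the cue were smaller without libraries that stood apart, in a fit with fewer libraries. Hspa5 was 307.4 and 479.3 CPM in cue libraries 32A and 32B and 178.4 to 261.4 CPM in the other 4, and Dnajb1 was 81.2 CPM in 32B and 43.1 to 58.9 CPM in the others. Both 32A and 32B, with 34A and 34C, had Lcn2 above 2 CPM. Without the libraries high in Lcn2, which leaves 2 cue and 4 home cage libraries, the cue gave 47 calls, all higher, with 8 of 20 rapid factors and no heat shock or ER chaperone among them. Hspa5 then had a log2 fold change of 0.32 after shock and cue and 0.20 after the cue, a difference of 0.12 (95% interval -0.21 to 0.45), and that of Hsph1 was 0.03 (-0.12 to 0.17).

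The response to shock and cue in VH labelled 6NJ came from other libraries throughout. There 1696 genes were called (8.65%), 893 higher (4.56%) and 803 lower (4.1%). The difference between the responses was called for none of the 19597 genes. An unadjusted p under 0.05 was found for 817 (4.17%), and the smallest adjusted p was 0.131 for Emp2. DESeq2 called 1 gene, again Emp2. Of the 361 genes higher in VH labelled 6J, 220 (60.9%) were higher in VH labelled 6NJ, where they were 24.6% of the higher calls, and 135 of the 249 lower genes (54.2%) were lower there, 16.8% of the lower calls. Emp2, a membrane protein, was the 1 gene called in opposite directions, at 0.20 ± 0.05 with the label 6J (adjusted p = 0.02) and -0.17 ± 0.05 with the label 6NJ (adjusted p = 0.0296). Egr2 had a log2 fold change of 2.72 with the label 6J and 2.81 with the label 6NJ (difference -0.09, 95% interval -0.51 to 0.34). Fos had 2.25 with the label 6J and 2.30 with the label 6NJ (difference -0.05, -0.53 to 0.43). Of the 20 heat shock chaperones, 2 rose in the libraries labelled 6J and 14 in those labelled 6NJ, and no single gene's difference was called.

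In DH labelled 6J, 484 of 20255 genes were called (2.39%), 323 higher (1.59%) and 161 lower (0.795%). The difference between the responses of VH and DH was called for none, and DESeq2 called none either. With edgeR, 989 (4.88%) had an unadjusted p under 0.05, and the smallest adjusted p was 0.994. Of the 361 higher genes of VH, 165 (45.7%) were higher in DH, where they were 51.1% of the higher calls. Of the 249 lower genes, 31 (12.4%) were lower in DH, 19.3% of the lower calls there. No gene called in VH was called in the other direction in DH. Nr4a1 rose by 0.75 in VH and 1.16 in DH, a difference of -0.41 (95% interval -0.64 to -0.18), and Errfi1 by 0.54 in VH and 0.29 in DH, a difference of 0.26 (0.09 to 0.43). Both intervals lie away from 0, and neither difference passed the adjustment over all genes (adjusted p = 0.99 each).

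**Figure D5:**
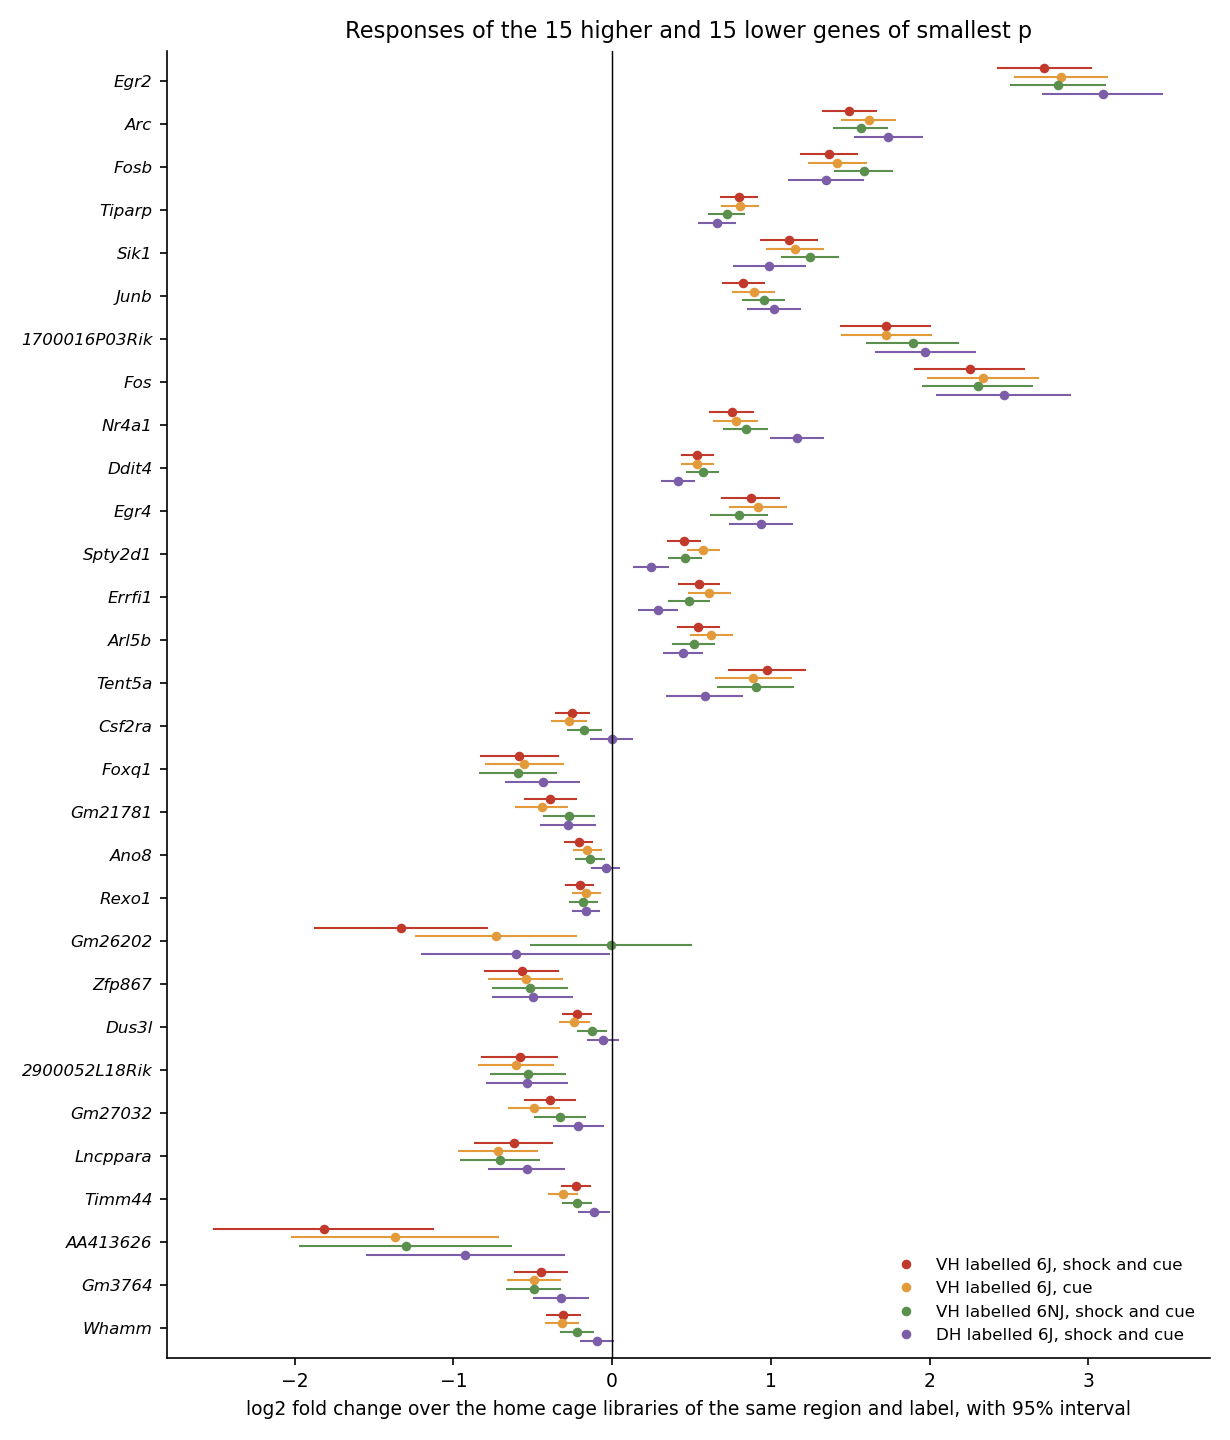
Log2 fold changes over home cage libraries (x axis, points) with 95% intervals (lines) for the 15 higher and 15 lower genes of smallest p, in VH labelled 6J after shock and cue and after the cue, in VH labelled 6NJ after shock and cue and in DH labelled 6J after shock and cue. The red and orange values share their home cage libraries. The 15 higher genes lie above 0 in all 4 comparisons, and Csf2ra lies at 0 in DH.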

How the data were processed

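RNA was taken from male mice and sequenced as stranded messenger RNA libraries with single reads of 75 bases, per the labels' protocols. The deposited gene table holds read counts for 55401 gene identifiers, and HISAT2, featureCounts and the build GRCm38 are named in the submitters' processing notes, with no versions. The deposited transcript tables hold estimated counts for 119414 transcripts, with kallisto named in the same notes. The strand setting of the counting is not given in the sources used here, so genes with an overlapping or antisense partner are uncertain.

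Gene counts were tested with edgeR 4.0.16 (R 4.3.3): TMM scaling, filterByExpr by group, robust dispersions and the quasi-likelihood F test, fitted on all 36 VH libraries with 1 mean per group. DH was compared in 1 fit of all 72 libraries. The same test was run on estimated counts after rounding them. CPM used TMM-scaled totals. Adjusted p is by Benjamini-Hochberg over all features of a test, with a threshold of 0.05. SE is the size of the log2 fold change over the square root of F, and 95% intervals use the same degrees of freedom. DESeq2 1.42.0 and limma 3.58.1 served as alternatives. The procedure was also run on simulated counts with the same dispersion for every gene and independent libraries. Such counts cannot test how calls depend on code numbers.

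Libraries were grouped by the labels. Named genes were the 15 higher and 15 lower genes of smallest p and members of the gene lists. Genes named outside this rule are said to be so, or are given with the value that singled them out. The comparison, members and lists were chosen with earlier results of these data known. Symbols came from GENCODE vM21 and promoters from RefSeq GRCm38.p6. The lowest chi-square per degree of freedom over 30 pairs of libraries within the 2 groups was 5.002, so no pair was taken for 1 library deposited again.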

Additional observations from a re-analysis of the deposited data

Results flagged for a closer look

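In 6 of 186 groups of 6 libraries tested, 1 library stood apart from the other 5 by Dixon's test at the 95% level, and chance alone flags about 1 group in 20. Atf3 was 0.5422 CPM in shock and cue library 33B, against 0.853 to 0.949 CPM in the others of that group. Dnajb4 was 61.82 CPM in shock and cue library 31C, against 66.2 to 68.9 CPM in the others. Homer1 was 157.2 CPM in shock and cue library 31B, against 126.8 to 138.2 CPM in the others. In the home cage libraries, Egr4 was 15.91 CPM in 36A (10.7 to 12.01 CPM in the others), 1700016P03Rik was 3.005 CPM in 36C (1.73 to 2.05 CPM in the others), and Lcn2 was 16.9 CPM in 35B (0.0281 to 5.86 CPM in the others). The part of these libraries in the results was tested by leaving each out.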

How the results depend on the processing

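For shock and cue against home cage, where 610 genes were called, 360 were called with no low-count filter, 927 with DESeq2, 355 with only the groups compared in the fit, 331 without the libraries with Lcn2 above 2 CPM and 290 with the ependymal level as a covariate. Leaving out 1 library gave 304 (without 31B) to 721 (without 35B). Without code number 31, 33, 35 or 36 the count was 83, 239, 163 or 198; these fits have 3 libraries in 1 group. RLE scaling (611), a mean CPM of at least 1 (699), the choroid plexus covariate (490) and limma-voom (843) stayed within 1.5 times. DESeq2 called 1 gene between shock and cue and cue, and 1 for 6J against 6NJ. Transcript calls (156) were 705 with DESeq2 and 79 without the Lcn2 libraries, where 75 of 204 and 13 of 19 lower transcripts had a retained intron. Without the Lcn2 libraries, 0 of 14 heat shock and 0 of 10 ER chaperone calls of the cue remained.

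Of 93 genes followed, 81 were called, and 30 of these were called in the same direction in all alternatives. Nr4a2 turned to -0.0246 without code number 31 and -0.0013 without 35, Rbm3 to -0.0259 without 33, S100a9 to 0.3508 without 35 and 0.5888 without the Lcn2 libraries, and Npas4 to -0.0795 without the Lcn2 libraries. The cause was not tested. With the code as a replicate block, VH minus DH again gave 0 genes; deviations of the same code in VH and DH correlated at -0.189 to 0.341 (over 0.1 in 16 of 36), which did not meet the rule for pairing; whether a code marks the same mouse in both regions was not tested. The Lcn2, ependymal, choroid plexus and no-zero settings were chosen after seeing the data.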

Other observations

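Genes of the pituitary differed between libraries of the shock and cue group, and were chosen after their values were seen. Gh, growth hormone, stood at 9.67, 11.22 and 13.24 CPM in libraries 33A, 33B and 33C and at 0.0575 to 0.415 CPM in 31A, 31B and 31C. In the home cage it was 2.398 CPM in 36B and 0 to 0.0598 CPM in the others. Prl, prolactin, was 1.877, 1.884 and 2.883 CPM in 33A, 33B and 33C, and 0 to 0.0575 CPM in 31A, 31B and 31C, against 0 to 0.24 CPM in the home cage. Neither was called (adjusted p = 0.109 for Gh and 0.0515 for Prl, edgeR). Pomc was 21.61 CPM in 33A, 0.845 to 2.67 CPM in the other shock and cue libraries and 0.767 to 1.43 CPM in the home cage (adjusted p = 0.0767). Six3, a forebrain factor, was 2.17 CPM in 33C.

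The highest fitted fold change among called genes belonged to mt-Tr, a mitochondrial transfer RNA, at 4.801 ± 1.17 on the log2 scale (adjusted p = 0.019). Of its 71 counts in the shock and cue libraries, 64 were in 33B, and the home cage libraries held 2 in all, with 4 libraries at 0. This fold change depends on the prior count.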
